A study of Mus musculus with 18 samples.

Results

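In *Atrx* KO mesenchymal progenitor cells (MPCs), 11 autosomal genes were read at a level near 0 in every WT polyA library and were present in every KO polyA library. They were chosen on these values: fewer than 0.2 CPM (the count of a gene scaled to a library total of 1000000 counts) in all 3 WT polyA libraries, and at least 0.5 CPM in all 6 KO polyA libraries. Of 22982 autosomal genes listed, among 24100 genes in all, 11 met both limits: *Bves*, *Cys1*, *Lrp3*, *Zdhhc14*, *Qrfpr*, *Ch25h*, *Dgkg*, *Ago4*, *Pamr1*, *Pde10a* and *Ptchd4*. The same limits turned around, at least 0.5 CPM in WT and fewer than 0.2 in both clones, were met by 76 autosomal genes. No gene outside the autosomes met the rule.

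The cells are C3H/10T1/2, a mouse mesenchymal progenitor line. WT cells carried the empty Cas9 vector, and each *Atrx* KO line is a single clone made with a different guide RNA, named sg5 or sg6 after its guide. PolyA-selected and rRNA-depleted RNA were each sequenced in 3 libraries per line, 18 libraries in all. In the paper's workflow, transfected cells were sorted singly into wells, and the WT control received an empty vector. The labels do not say that the 3 libraries of a line came from separate cultures. The p-values therefore measure the spread between libraries of a single line, and a clone differs from WT by whatever else distinguishes these lines. A single WT line was the reference for sg5 and for sg6, so their contrasts with WT are not independent. A change private to that WT line would enter each of these contrasts alike, and this was not tested.

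The polyA libraries held 27544833 to 80772108 counts in WT, 58918732 to 71896907 in sg6 and, deepest of all, 161036799 to 235346363 in sg5. The rRNA-depleted libraries held 20135336 to 33187136 counts. A WT polyA level of 0.2 CPM corresponds to between 5.51 and 16.2 counts, so the lower limit of the rule rests on few reads, and a count of 0 allows up to 3 counts, or 0.0371 to 0.109 CPM. These limits and the counting intervals below cover counting error only. *Atrx* RNA itself fell to 125 ± 12.8 CPM in sg5 and 125 ± 10.1 in sg6, from 321 ± 33.6 in WT (SD, n = 3 polyA libraries each), so the transcript was reduced and not absent. The paper reports loss of the ATRX protein in these lines by immunoblot and immunofluorescence. All 16 mesenchymal progenitor markers examined were expressed above the filter on low counts in polyA. In bulk RNA, a change in the number of cells that express a gene and a change in RNA per cell cannot be told apart.

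ATRX is a chromatin remodeller that works with the histone chaperone DAXX to place a histone variant into heterochromatin, where it is needed to keep repeats and some genes silent. A gene that is silent in a progenitor is often one that belongs to another cell type, held off by repressive chromatin or by the lack of an activator. The 11 genes do not form a family. They include a cAMP-binding membrane protein of muscle (*Bves*), a membrane protein of the primary cilium (*Cys1*), lipid-signalling and sterol enzymes (*Dgkg*, *Ch25h*), a protein palmitoyltransferase (*Zdhhc14*), a cyclic nucleotide phosphodiesterase best known from the striatum (*Pde10a*), a G protein-coupled neuropeptide receptor (*Qrfpr*), an Argonaute protein (*Ago4*), a secreted protein linked to muscle regeneration (*Pamr1*), and members of the LDL receptor and Patched-domain families (*Lrp3*, *Ptchd4*).

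All 11 genes are annotated as protein coding. Of these, 3 lie on chromosome 17 (*Zdhhc14*, *Pde10a* and *Ptchd4*) and the other 8 on 8 different chromosomes. No pair starts within 1 Mb of each other, and the closest pair, *Zdhhc14* and *Pde10a*, starts 3.03 Mb apart. In the knockouts the mean polyA level per kilobase of exon ran from 0.165 CPM per kb for *Ptchd4* to 2.22 for *Bves* and 2.11 for *Cys1*. *Lrp3* (1.11), *Zdhhc14* (1.1) and *Qrfpr* (0.989) followed these. *Ch25h* (0.545), *Dgkg* (0.543), *Ago4* (0.419), *Pamr1* (0.32) and *Pde10a* (0.2) were lower on this scale of CPM per kb.

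In the polyA libraries the 11 genes were chosen for a higher level in the knockouts, so their polyA contrast with WT is given without a test. All 11 passed the filter on low counts in both kinds of library, which in a gene near 0 in WT rests on the KO libraries. In polyA all 11 also passed a log2 fold change above 1 with an adjusted *p* below 0.05 in both clones, as did 2.18% of all 15480 genes tested, but the rule fixed this count. Nothing was chosen on the rRNA-depleted libraries, which were prepared and counted separately from the same lines. There, 8 of the 11 genes were up in sg5, where 3.04% of 13303 tested genes were up, and 10 were up in sg6, where 2.16% of genes were (edgeR quasi-likelihood test, Benjamini-Hochberg adjusted over genes and transposable element loci). The 8 that rose in sg5 also rose in sg6, against 1.35% of all genes up in both clones and 2.62% down in both. The exceptions were *Pamr1*, which passed in neither clone, and *Pde10a* and *Ptchd4*, which passed in sg6 alone. Without WT replicate 3, the count in sg5 was 5 and that in both clones was also 5.

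**Figure D1:**
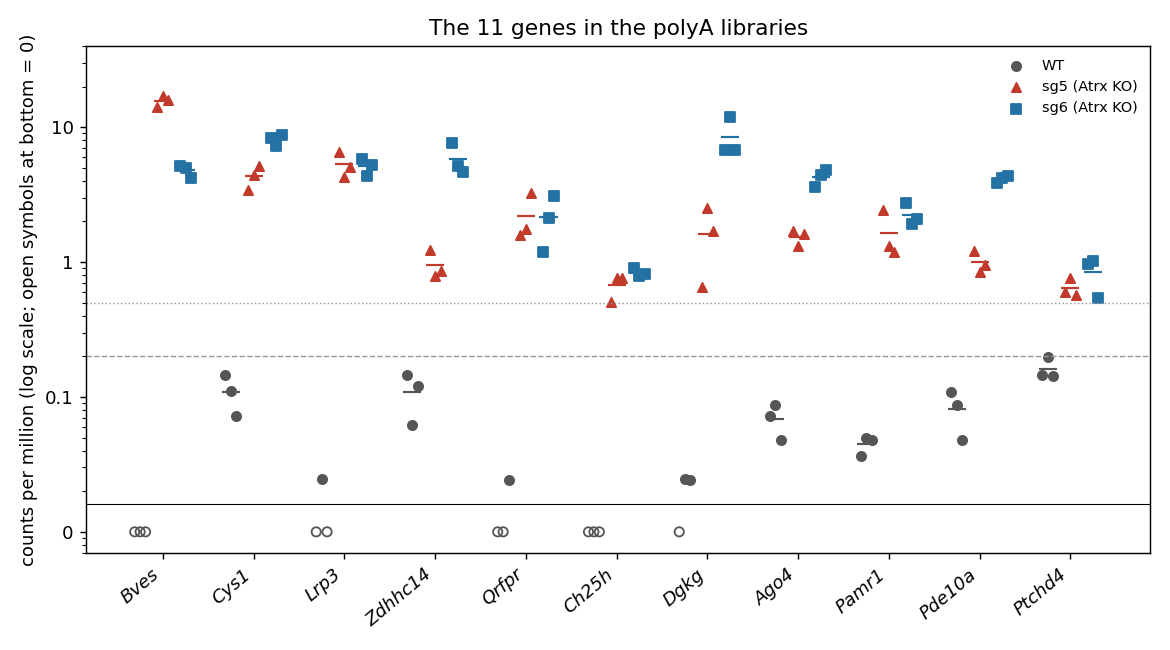
PolyA level of the 11 genes in each library, in CPM on a log axis, ordered by level per kilobase of exon in the knockouts. Points are libraries of WT (circles), sg5 (triangles) and sg6 (squares), short bars are means of groups with no library at 0, and open symbols below the solid line stand for 0 counts; every WT point lies under the dashed line at 0.2 and every KO point over the dotted line at 0.5, since these lines are the rule.

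**Figure D2:**
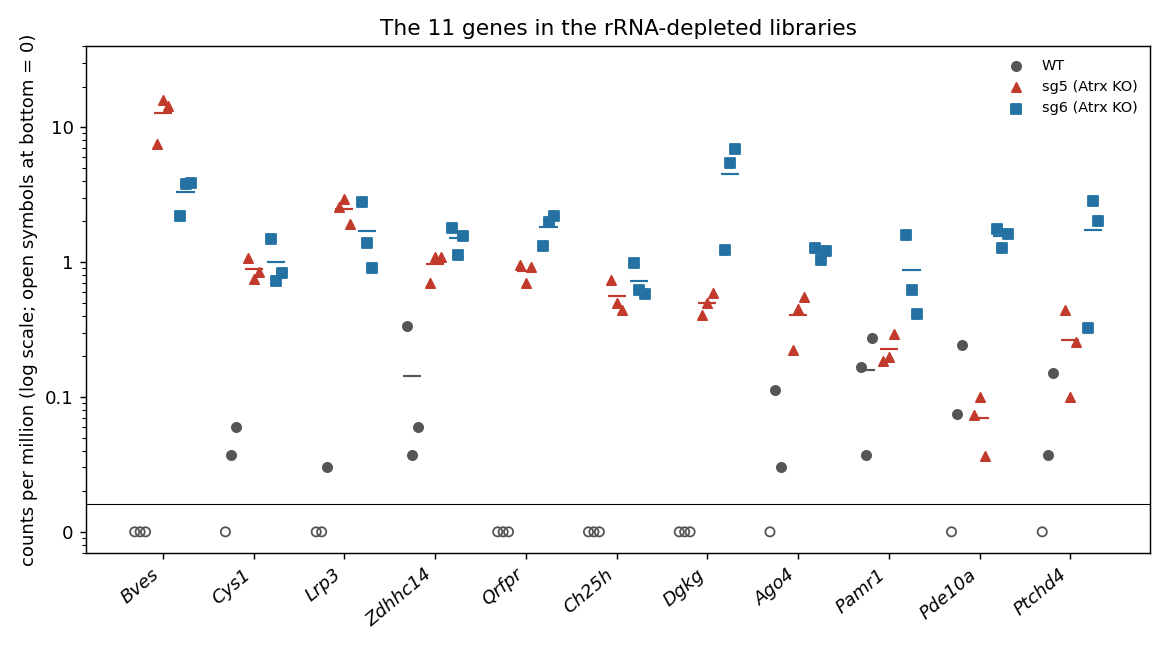
Level of the same 11 genes in the rRNA-depleted libraries, which the rule did not use, drawn with the same axes and symbols. All KO points lie above all WT points for 8 genes, as they do for 8.07% of all genes tested, and overlap with them for *Pamr1*, *Pde10a* and *Ptchd4*, and the sg5 points of *Pde10a* (at most 0.0993 CPM) lie within the range of WT.

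The promoters of these genes differ in their base composition. RefSeq promoter windows (GRCm38.p6, 250 bases before to 50 after a start) matched 8 of the 11 genes in 10 windows, since *Pde10a* and *Ptchd4* have a pair each. The ratio of observed to expected CpG ran from 0.223 in a *Pde10a* window to 1.038 in the *Ago4* window, and the median of the 10 windows, 0.588, is near the median of all 20792 autosomal windows, 0.583. The GC content ran from 51.0% for *Ch25h* to 83.3% for *Ago4*. The ends of this range are shown here as the 250 bases before the start, with each CpG in capitals, for *Ago4* (chr4:126533459-126533708, minus strand) and for the CpG-poor start of *Pde10a* (chr17:8849735-8849984, plus strand).
Ago4: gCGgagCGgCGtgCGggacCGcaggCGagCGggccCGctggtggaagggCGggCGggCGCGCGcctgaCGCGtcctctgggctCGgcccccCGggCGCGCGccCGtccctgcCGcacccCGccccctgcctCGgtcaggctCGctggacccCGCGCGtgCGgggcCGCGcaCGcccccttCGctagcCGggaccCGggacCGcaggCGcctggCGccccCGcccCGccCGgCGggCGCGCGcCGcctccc
Pde10a: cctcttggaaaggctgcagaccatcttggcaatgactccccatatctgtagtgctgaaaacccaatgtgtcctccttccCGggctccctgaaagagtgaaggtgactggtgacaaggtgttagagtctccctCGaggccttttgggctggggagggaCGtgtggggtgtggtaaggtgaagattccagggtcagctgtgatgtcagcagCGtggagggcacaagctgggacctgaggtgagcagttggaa

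Known promoter elements were also searched on both strands of the 10 windows. GGGCGG, the core of a GC box, was in 6 windows and in 47.0% of all autosomal windows, and CCAAT was in 3 windows and in 37.9%. A run of 4 blocks of at least 3 G separated by 1 to 7 bases, the pattern of a G-quadruplex, was in 4 windows (*Ago4*, both *Pde10a* windows and a *Ptchd4* window) and in 22.5% of all windows. CACGTG, the E-box palindrome, was in 2 windows, *Lrp3* and *Dgkg*, and in 8.05% of all windows. *Ch25h* alone held TATAAA (12.2% of all windows) and TGACGTCA, the full cAMP response element (2.37% of all windows). Each match is a description of these letters and not evidence of binding. No element was common to all 10 windows, and the rarer matches are shown in capitals below in the 250 bases before the start of *Lrp3* (chr7:35215346-35215595, minus strand), *Dgkg* (chr16:22657232-22657481, minus strand) and *Ch25h* (chr19:34475149-34475398, minus strand).
Lrp3: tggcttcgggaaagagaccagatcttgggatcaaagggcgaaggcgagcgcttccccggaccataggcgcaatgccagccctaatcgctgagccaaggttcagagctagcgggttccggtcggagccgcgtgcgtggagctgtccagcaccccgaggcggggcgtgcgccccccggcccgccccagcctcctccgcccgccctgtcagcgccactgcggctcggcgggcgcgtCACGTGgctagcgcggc
Dgkg: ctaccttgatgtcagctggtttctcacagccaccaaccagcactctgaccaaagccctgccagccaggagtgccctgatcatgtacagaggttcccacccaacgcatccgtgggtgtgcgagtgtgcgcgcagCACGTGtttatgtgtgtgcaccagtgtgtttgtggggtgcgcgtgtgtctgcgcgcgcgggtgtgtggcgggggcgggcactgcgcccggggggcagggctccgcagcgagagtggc
Ch25h: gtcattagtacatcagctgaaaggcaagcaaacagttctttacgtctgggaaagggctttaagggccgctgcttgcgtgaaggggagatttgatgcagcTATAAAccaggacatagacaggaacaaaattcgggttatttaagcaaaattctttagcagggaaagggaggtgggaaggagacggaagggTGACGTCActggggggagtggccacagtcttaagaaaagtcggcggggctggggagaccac

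**Figure D3:**
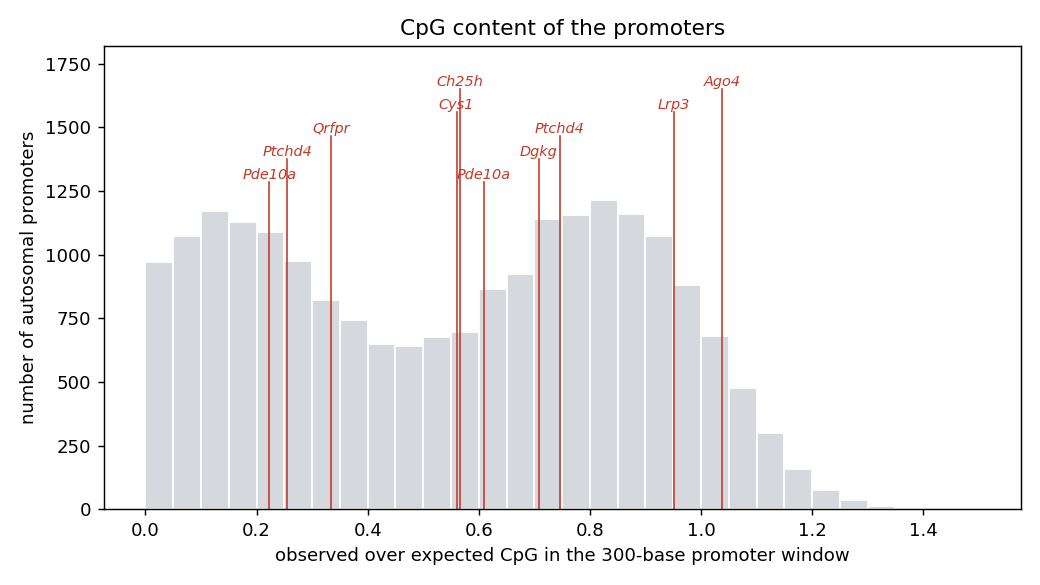
Observed over expected CpG (x axis, a ratio with no unit) in 300-base promoter windows, with the number of autosomal windows per bin of 0.05 as grey bars (y axis, n = 20792) and the 10 windows of the chosen genes as red lines. The windows lie across both humps of the distribution, from 0.223 (*Pde10a*) to 1.038 (*Ago4*).

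*Bves* had the highest level per kilobase of the set and was the clearest case of a gene not detected in WT. It encodes a Popeye-domain protein, a cAMP-binding membrane protein of heart and skeletal muscle, on the plus strand of chromosome 10 from 45335772 to 45372479. No WT polyA library held a read, while levels were 14.0, 17.1 and 16.0 CPM in sg5, and 5.19, 5.0 and 4.18 CPM in sg6. Set against 3 counts in each WT library, the sg5 level was at least 216-fold higher than WT, and that of sg6 at least 65.9-fold. In the rRNA-depleted libraries there were 0 counts in WT, 205, 322 and 392 in sg5, and 54, 111 and 93 in sg6. Every KO library was therefore well above every WT library in both kinds of RNA. For sg5 the rRNA-depleted level was at least 116-fold higher than WT (adjusted *p* = 5.86e-06, edgeR quasi-likelihood test), and for sg6 at least 30.1-fold (adjusted *p* = 4.2e-05).

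Striated muscle and heart markers did not rise with *Bves*. Of 14 such genes tested in polyA, 0 passed upward in both clones at the edgeR quasi-likelihood threshold and 5 fell in both (*Myod1*, *Myog*, *Ttn*, *Myh3* and *Tnnt3*), where 5.48% of all genes fell. Summed over the list, WT polyA libraries held 33.9 to 35.6 CPM, against 21.5 to 24.1 for sg5 libraries and 22.9 to 28.6 for sg6 libraries. In the rRNA-depleted libraries 1 of 8 tested, *Tnnc1*, rose in both clones and 0 fell, where 1.35% and 2.62% of all genes did. None of the 5 polyA falls was thus called in both clones there. The list summed there to 25.7 to 32.8 CPM in WT libraries, 17.0 to 18.9 in sg5 and 19.8 to 30.0 in sg6, which overlaps WT. The summed polyA level of neuron markers ran from 234 to 360 CPM over the WT libraries, from 494 to 571 over sg5 and from 586 to 824 over sg6. That of epithelial markers ran from 3.89 to 7.14, from 1.13 to 2.04 and from 0.723 to 1.34 CPM over the same groups. Of 14 neuron markers tested in polyA, *Map2* and *L1cam* rose and *Syn2*, *Syt1* and *Gap43* fell in both clones. The median log2 fold change of these 14 was -0.044 in sg5 and -0.352 in sg6, so the higher sum was not a general rise. Both epithelial genes that fell (*Cdh1* and *Krt14*) were among 3 tested, while 0 of 6 blood genes rose and 1 fell (*Lyz2*), and 1 of 7 endothelial genes rose (*Tek*) and 2 fell (*Pecam1* and *Erg*). None of the 11 genes is on the neuron, epithelium, blood, endothelium, muscle or germline lists, and the part of other cell types in these results was not tested.

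*Cys1* encodes cystin, a lipid-anchored protein of the primary cilium that is lost in a mouse model of polycystic kidney disease. It lies on the minus strand of chromosome 12 from 24665833 to 24681813. In polyA it stood at 0.145, 0.111 and 0.0721 CPM in WT, 3.40, 4.45 and 5.17 in sg5, and 8.33, 7.31 and 8.67 in sg6. The ratio of pooled CPM to WT was 40.8 in sg5 (95% counting interval 25.1 to 71.5) and 75.9 in sg6 (46.6 to 133). Counts in the rRNA-depleted libraries were 0, 1 and 2 in WT, 29, 15 and 23 in sg5, and 36, 21 and 20 in sg6. All KO libraries thus exceeded all WT libraries here as well, and the clones overlapped. The pooled ratio was 25.2 (8.25 to 125) in sg5 with an edgeR quasi-likelihood adjusted *p* of 0.000575, and 27.7 (9.14 to 137) in sg6 with an adjusted *p* of 0.000427. Of the 9 polycystic kidney disease cilium genes tested in polyA, *Cys1* was the only 1 to rise in both clones and 0 fell.

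*Lrp3*, a receptor-like gene of the LDL receptor family, lies on the minus strand of chromosome 7 from 35200027 to 35215498. PolyA levels were 0, 0.0248 and 0 CPM in WT, 6.55, 4.30 and 5.10 in sg5, and 5.84, 4.36 and 5.23 in sg6. The clones overlapped almost fully. From 2 pooled WT counts, the polyA ratio was 388 in sg5 (95% counting interval 107 to 3210) and 387 in sg6 (107 to 3200). The rRNA-depleted counts were 0, 0 and 1 in WT, 69, 59 and 52 in sg5, and 68, 40 and 22 in sg6. From that single WT count the ratio was 203 (35.9 to 8050) in sg5, with an edgeR quasi-likelihood adjusted *p* of 5.63e-05, and 140 (24.8 to 5590) in sg6, with an adjusted *p* of 0.000135. Exons of *Lrp3* overlap those of *Slc7a10* on the opposite strand, and 6.88% of its 31-base transcript words occur in other genes, so with no strand setting stated its counts may hold some reads of that gene. Of 12 LDL receptor family genes tested in polyA, *Vldlr* was the only other 1 to rise in both clones, by 1.24 ± 0.30 (SE) in sg5 and 1.13 ± 0.30 in sg6 on the log2 scale, and it did not pass in the rRNA-depleted libraries.

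*Zdhhc14*, a DHHC enzyme that attaches palmitate to proteins, lies on the plus strand of chromosome 17 from 5492557 to 5753811. In polyA its level was 0.145, 0.0619 and 0.120 CPM in WT, 1.23, 0.782 and 0.864 in sg5, and 7.61, 5.11 and 4.65 in sg6. The groups formed 3 separate steps, WT below sg5 below sg6. The polyA ratio to WT was 10.0 in sg5 (95% counting interval 5.91 to 18.4) and 63.1 in sg6 (37.4 to 116). The rRNA-depleted counts were 8, 1 and 2 in WT, 19, 22 and 30 in sg5, and 44, 33 and 38 in sg6, so the KO libraries again lay above WT. The log2 fold change there was 2.90 ± 0.59 (SE) in sg5 with an adjusted *p* of 0.0133, and 3.53 ± 0.58 in sg6 with an adjusted *p* of 0.00329 (edgeR quasi-likelihood test). The sg5 call was lost without WT replicate 2 (2.49, adjusted *p* = 0.0626) or WT replicate 3 (2.44, adjusted *p* = 0.0929). Among 18 palmitoyltransferase genes tested in polyA, only *Zdhhc2* rose beside it in both clones, by 1.1 ± 0.32 in sg5 and 1.69 ± 0.33 in sg6 (SE). *Zdhhc2* did not pass in both clones in the rRNA-depleted libraries.

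*Qrfpr* encodes the receptor of the RFamide neuropeptide QRFP, on the minus strand of chromosome 3 from 36179424 to 36222313. The polyA libraries gave 0, 0 and 0.0240 CPM in WT, 1.58, 1.76 and 3.23 in sg5, and 1.2, 2.13 and 3.11 in sg6. From a single WT count, the ratio was 321 in sg5 (95% counting interval 57.4 to 12700) and 312 in sg6 (55.7 to 12400). The 2 clones overlapped. The rRNA-depleted counts were 0 in all WT libraries, 26, 14 and 25 in sg5, and 32, 58 and 53 in sg6. The sg5 level was thus at least 7.85-fold higher than WT (adjusted *p* = 0.00019, edgeR quasi-likelihood test), and the sg6 level at least 16.8-fold (adjusted *p* = 4.31e-05). The gene of its ligand, *Qrfp*, did not rise: its log2 fold change in polyA was -0.78 ± 0.22 (SE) in sg5, short of the fold threshold, and it fell by 1.3 ± 0.25 in sg6.

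*Ch25h* encodes an enzyme that hydroxylates cholesterol to an oxysterol, a sterol signal of innate immunity, and is a gene with a single exon on the minus strand of chromosome 19 from 34473778 to 34475164. It was at 0 in every WT polyA library, and at 0.503, 0.765 and 0.760 CPM in sg5, and 0.904, 0.788 and 0.815 CPM in sg6. The level of sg5 was at least 9.29-fold higher than WT, that of sg6 at least 11.5-fold. The level was low, but it varied little between libraries. The rRNA-depleted counts were 0 in all WT libraries, 20, 10 and 12 in sg5, and 24, 18 and 14 in sg6. All 6 KO libraries again exceeded WT, with a level at least 5.11-fold higher for sg5 (adjusted *p* = 0.00116, edgeR quasi-likelihood test), and at least 6.66-fold for sg6 (adjusted *p* = 0.000699). The exon overlaps a long noncoding RNA on the opposite strand, and 9.51% of its 31-base words occur in another gene.

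*Dgkg* encodes a diacylglycerol kinase, which turns diacylglycerol into phosphatidic acid and so ends its signal, on the minus strand of chromosome 16 from 22468461 to 22657221. Its polyA level was 0, 0.0248 and 0.0240 CPM in WT, 0.652, 2.51 and 1.70 in sg5, and 6.75, 11.9 and 6.72 in sg6. From 3 pooled WT counts the ratio was 86.8 in sg5 (95% counting interval 29.6 to 422) and 421 in sg6 (144 to 2040). The rRNA-depleted counts were 0 in WT, 11, 10 and 16 in sg5, and 30, 157 and 166 in sg6. In both kinds of RNA each sg6 library was above each sg5 library. The rRNA-depleted level of sg5 was at least 4.55-fold higher than WT (adjusted *p* = 0.0144, edgeR quasi-likelihood test), and that of sg6 at least 41.2-fold (adjusted *p* = 0.000242). Without WT replicate 3 the adjusted *p* in sg5 was 0.0694. An exon of *Dgkg* overlaps *Gm15651* on the opposite strand. Of 9 diacylglycerol kinase genes tested in polyA, *Dgkg* was the only 1 to rise in both clones, and *Dgki* fell by 2.05 ± 0.48 in sg5 and by 3.01 ± 0.57 in sg6 on the log2 scale (SE).

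*Ago4* encodes an Argonaute protein, which binds small RNAs and is known for a role in male germ cells, on the minus strand of chromosome 4 from 126489541 to 126533472. PolyA values were 0.0726, 0.0867 and 0.0481 CPM in WT, 1.69, 1.31 and 1.62 in sg5, and 3.63, 4.39 and 4.82 in sg6. The ratio to WT was 20.6 in sg5 (95% counting interval 11.4 to 41.4) and 57.8 in sg6 (32.1 to 116). In rRNA-depleted libraries the counts were 0, 3 and 1 in WT, 6, 9 and 15 in sg5, and 31, 30 and 29 in sg6. Groups were separate in both kinds of RNA. The log2 fold change in the rRNA-depleted libraries was 3.09 ± 0.70 (SE) in sg5 with an adjusted *p* of 0.0234, and 4.59 ± 0.64 in sg6 with an adjusted *p* of 0.000897 (edgeR quasi-likelihood test). The sg5 call was lost without WT replicate 1 (2.71, adjusted *p* = 0.0644), WT replicate 3 (2.75, adjusted *p* = 0.132), sg5 replicate 2 (3.05, adjusted *p* = 0.0568) or sg5 replicate 3 (2.82, adjusted *p* = 0.075), with a log2 fold change that stayed above 2.7. The other Argonaute genes did not pass in both clones: the polyA log2 fold changes in sg5 and sg6 were -0.23 and -0.60 for *Ago1*, 0.06 and 0.07 for *Ago2*, and 0.37 and 0.16 for *Ago3*. On the germline list, 1 of 13 genes tested in polyA rose in both clones (*Tex15*) and 1 fell (*Brdt*).

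*Pamr1* encodes a secreted protein with a peptidase-like domain, on the plus strand of chromosome 2 from 102550012 to 102643041. In polyA, *Pamr1* was at 0.0363, 0.0495 and 0.0481 CPM in WT, 2.42, 1.33 and 1.19 in sg5, and 2.74, 1.90 and 2.09 in sg6. The ratio to WT was 34.3 in sg5 (95% counting interval 16.6 to 85.5) and 48.5 in sg6 (23.4 to 121). The rRNA-depleted libraries did not follow this in sg5: counts were 4, 1 and 9 in WT, 5, 4 and 8 in sg5, and 39, 18 and 10 in sg6. WT and sg5 overlapped, and the log2 fold change of sg5 was 0.59 ± 0.72 (SE, adjusted *p* = 0.748, edgeR quasi-likelihood test). In sg6 it was 2.51 ± 0.64 (adjusted *p* = 0.0549), and it passed without sg5 replicate 1 (2.55, adjusted *p* = 0.0313) or sg6 replicate 3 (2.89, adjusted *p* = 0.0342). It also passed with DESeq2 (2.62, adjusted *p* = 0.018), with median-of-ratios size factors, with either other filter and with genes alone, at adjusted *p* values up to 0.0413. In a replicate block fit it passed as well (2.47, adjusted *p* = 0.0495). These fits made 11 of the 11 genes up in sg6, except the filter of at least 10 counts in every library of a group. That filter left *Ptchd4* untested and 10 genes up.

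*Pde10a* encodes a phosphodiesterase that breaks down cAMP and cGMP, on the plus strand of chromosome 17 from 8525372 to 8986648. Its polyA level was 0.109, 0.0867 and 0.0481 CPM in WT, 1.22, 0.850 and 0.944 in sg5, and 3.84, 4.23 and 4.31 in sg6. The ratio to WT was 12.3 in sg5 (95% counting interval 6.97 to 23.9) and 51.4 in sg6 (29.2 to 99.8). Support in the rRNA-depleted libraries was split between the clones: counts were 0, 2 and 8 in WT, 2, 2 and 1 in sg5, and 43, 37 and 39 in sg6. In sg5 the log2 fold change was -0.59 ± 0.84 (SE, adjusted *p* = 0.793, edgeR quasi-likelihood test), and 0.77 without WT replicate 3 (adjusted *p* = 0.826). In sg6 it was 3.83 ± 0.59 (adjusted *p* = 0.00204), with all 3 libraries above WT. The label of a gene switched on in the knockouts therefore holds for *Pde10a* in sg6 in both kinds of RNA and in sg5 in polyA alone. Of 22 phosphodiesterase genes tested in polyA, *Pde5a* and *Pde8b* also rose in both clones and 6 fell in both (*Pde1a*, *Pde1b*, *Pde1c*, *Pde3b*, *Pde7b* and *Pde9a*). Over all genes, 2.18% rose and 5.48% fell in both. Among 13 tested in the rRNA-depleted libraries, only *Pde8b* rose in both clones and only *Pde1a* and *Pde3b* fell.

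*Ptchd4* encodes a Patched-domain membrane protein, on the plus strand of chromosome 17 from 42315947 to 42505077, and had the smallest polyA ratios to WT of the set. Its polyA level was 0.145, 0.198 and 0.144 CPM in WT, 0.596, 0.765 and 0.570 in sg5, and 0.960, 1.02 and 0.543 in sg6. The ratio to WT was 3.80 in sg5 (95% counting interval 2.55 to 5.90) and 4.92 in sg6 (3.24 to 7.76). Among rRNA-depleted libraries, counts were 0, 1 and 5 in WT, 12, 2 and 7 in sg5, and 8, 82 and 49 in sg6. WT overlapped with sg5, and the spread among the sg6 libraries was wide. The log2 fold change was 2.04 ± 1.0 (SE, adjusted *p* = 0.329, edgeR quasi-likelihood test) in sg5 and 4.68 ± 0.86 (adjusted *p* = 0.00773) in sg6. Of 7 Patched-domain and Dispatched genes tested in polyA, *Ptchd4* was the only 1 to rise in both clones and 0 fell.

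The clones were then compared with each other, a contrast that the rule did not use. In polyA, 1 of the 11 genes was higher in sg5 than in sg6, where 1.36% of all genes were, and 4 were lower in sg5, where 1.25% were. *Bves* was higher in sg5, by 1.66 ± 0.15 on the log2 scale (SE, adjusted *p* = 0.000961, edgeR quasi-likelihood test). *Zdhhc14* (-2.65 ± 0.28, adjusted *p* = 0.00063), *Dgkg* (-2.42 ± 0.44, adjusted *p* = 0.0145), *Pde10a* (-2.09 ± 0.19, adjusted *p* = 0.000263) and *Ago4* (-1.52 ± 0.18, adjusted *p* = 0.00119) were lower in sg5, all by the same test. *Cys1* (-0.95 ± 0.18, adjusted *p* = 0.0189) missed the fold limit, and passed it without sg5 replicate 3 (-1.08) or without sg6 replicate 2 (-1.02). *Dgkg* lost its call without sg5 replicate 3 (adjusted *p* = 0.0647) or sg6 replicate 2 (adjusted *p* = 0.06). For the remaining 5 genes the polyA log2 difference lay between -0.50 (*Pamr1*) and 0.00 (*Lrp3*). In all, 7 of the 11 genes had sg5 and sg6 polyA libraries that did not overlap, as did 26.6% of all genes tested.

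The rRNA-depleted libraries gave the same direction for the 5 genes called in polyA. *Bves* was again higher in sg5 (1.95 ± 0.34, SE, adjusted *p* = 0.0279), the only 1 of the 11, against 0.556% of all genes (74 genes, or 136 with the replicate block). *Pde10a* (-4.42 ± 0.66, adjusted *p* = 0.00584) and *Dgkg* (-3.17 ± 0.57, adjusted *p* = 0.0324) were lower in sg5, against 0.925% of all genes (edgeR quasi-likelihood test). The log2 differences of *Ago4* (-1.50 ± 0.48, adjusted *p* = 0.365) and *Zdhhc14* (-0.62 ± 0.46, adjusted *p* = 0.795) did not pass. The calls of *Bves* and *Dgkg* did not hold in every fit, though the differences stayed between 1.73 and 2.09 for *Bves* and between -3.31 and -2.76 for *Dgkg* where they were lost. With genes fitted alone the adjusted *p* was 0.0514 for *Bves* and 0.063 for *Dgkg*. The adjusted *p* of *Bves* was 0.094 without sg5 replicate 2, 0.072 without sg5 replicate 3, 0.0535 without sg6 replicate 2 and 0.0889 without sg6 replicate 3. For *Dgkg* it was 0.0615, 0.0971 and 0.0704 without sg5 replicates 1, 2 and 3, and 0.0768 and 0.115 without sg6 replicates 2 and 3. *Ptchd4* passed without sg6 replicate 1 (-3.12, adjusted *p* = 0.0141). Not 1 of the 11 genes differed between clones with the opposite sign past the threshold in the other kind of library.

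**Figure D4:**
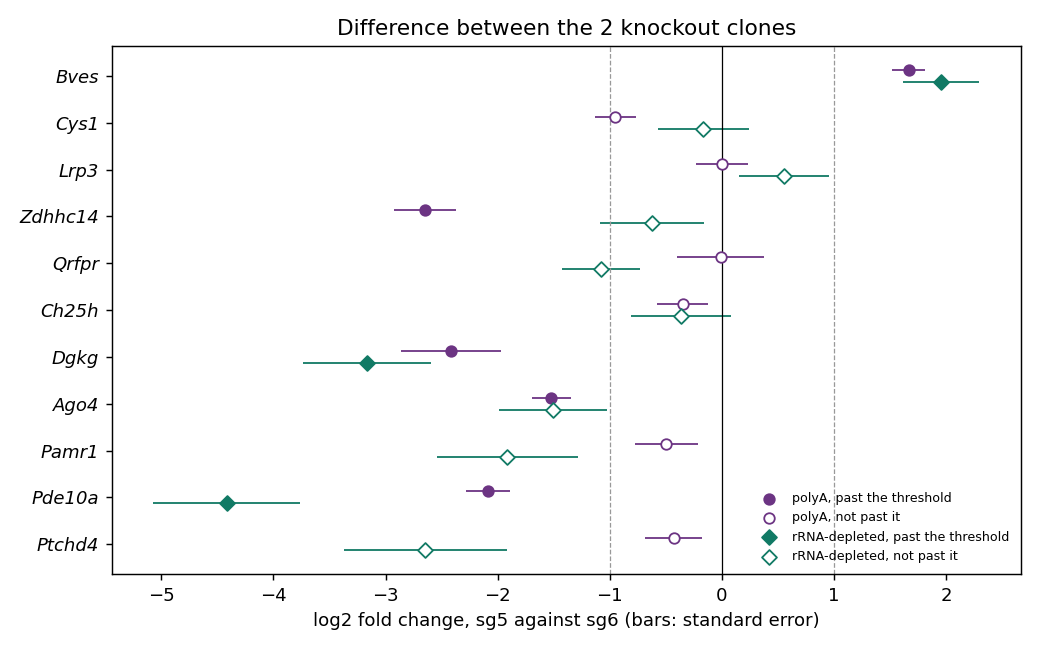
Log2 fold change of sg5 against sg6 (x axis) for the 11 genes, in polyA (circles) and rRNA-depleted libraries (diamonds), with the standard error as bars; n = 3 libraries per clone. Filled symbols passed an adjusted *p* below 0.05 with a log2 fold change beyond 1 (dashed lines): *Bves* lies to the right in both, at 1.66 and 1.95, and *Dgkg* and *Pde10a* to the left in both.

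The genes beside the 11 were examined to see whether whole neighbourhoods had changed. For each gene the nearest gene tested in polyA was taken on each side, 22 in all. Their gaps ran from 3.1 kb (*Klf11* to *Cys1*) to 1353.9 kb (*Mmut* to *Ptchd4*), so not all are adjacent. *Qk*, 1219.8 kb from *Pde10a*, also lies beyond 1 Mb. In polyA, 4 of the 22 rose in both clones (*Popdc3*, *Fjx1*, *Cebpa* and *Crygs*) and 1 fell (*3300005D01Rik*), where 2.18% and 5.48% of all genes did. In the rRNA-depleted libraries 2 of 21 tested rose in both (*Popdc3* and *Cebpa*) and 0 fell, where 1.35% and 2.62% of genes did (edgeR quasi-likelihood test). The other neighbours stayed within the thresholds in at least 1 clone. The median polyA log2 fold change over the 22 neighbours was 0.285 in sg5 and 0.255 in sg6, against -0.002 and -0.006 over all genes tested. In the rRNA-depleted libraries the medians over the 21 were 0.458 and 0.265, against 0.08 and 0.038. Whether these medians differ from those of all genes was not tested.

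*Popdc3*, 17.3 kb from *Bves*, encodes another Popeye-domain protein, so the gene pair belongs to the same small family. Its polyA level was 0.363, 0.334 and 0.0961 CPM in WT, 6.04, 7.26 and 6.56 in sg5, and 5.17, 4.09 and 3.31 in sg6. Its WT level is what kept it out of the set. Its log2 fold change was 4.75 ± 0.36 in sg5 (SE, adjusted *p* = 3.3e-05) and 4.14 ± 0.36 in sg6 (adjusted *p* = 5.6e-05) in polyA, and 3.64 ± 0.45 (adjusted *p* = 0.000332) and 3.31 ± 0.45 (adjusted *p* = 0.000734) in the rRNA-depleted libraries, by the edgeR quasi-likelihood test. *Lin28b*, 4.1 kb from *Bves* on the other side, did not rise (polyA log2 fold change -0.72 ± 0.29 in sg5 and -0.78 ± 0.32 in sg6, adjusted *p* = 0.101 and 0.0982). *Popdc2*, the Popeye gene elsewhere in the genome, fell by 1.19 ± 0.36 in sg5 and by 1.22 ± 0.4 in sg6 in polyA (adjusted *p* = 0.0374 and 0.0436). Over the 3 Popeye genes the WT polyA libraries summed to only 0.69 to 1.2 CPM, so *Popdc2* fell from a low level. Its fall was not examined in the alternative fits, and *Popdc2* was too low to test in the rRNA-depleted libraries.

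*Cebpa*, an adipogenic transcription factor 79.0 kb from *Lrp3*, rose by 1.30 ± 0.12 in sg5 and 1.22 ± 0.12 in sg6 on the log2 scale in polyA, and by 1.51 ± 0.22 and 1.25 ± 0.22 in the rRNA-depleted libraries (SE). Without WT replicate 3 its rRNA-depleted change in sg6 was 1.12 (adjusted *p* = 0.0504), which left *Popdc3* as the only neighbour up in both clones. *Fjx1*, 98.1 kb from *Pamr1*, rose in polyA by 2.97 ± 0.34 in sg5 and 4.11 ± 0.34 in sg6, and in the rRNA-depleted libraries it reached 2.01 ± 0.56 in sg5 (adjusted *p* = 0.0676) and 2.81 ± 0.56 in sg6 (adjusted *p* = 0.0135). That sg5 value passed without sg5 replicate 3 (adjusted *p* = 0.0434) or sg6 replicate 1 (adjusted *p* = 0.0282), and with DESeq2, no filter, at least 10 counts in every library of a group or the replicate block, at adjusted *p* values of 0.000254 to 0.0493. The sg6 value did not pass without WT replicate 2 (adjusted *p* = 0.0596) or WT replicate 3 (adjusted *p* = 0.101). *Crygs*, a crystallin gene 148 kb from *Dgkg*, had a mean polyA level of 0.0165 CPM in WT, against 0.186 CPM for sg5 and 0.337 CPM for sg6, and its polyA call in sg5 was lost without WT replicate 3 (2.48, adjusted *p* = 0.0567) or sg5 replicate 2 (2.61, adjusted *p* = 0.0588). In the rRNA-depleted libraries *Crygs* rose in sg5 (3.58 ± 0.86, SE, adjusted *p* = 0.0324) and did not pass in sg6 (3.10 ± 0.87, adjusted *p* = 0.0877). That sg5 call was lost without any WT replicate, sg5 replicate 2 or sg5 replicate 3, at adjusted *p* values of 0.059 to 0.141, and the sg6 value passed with DESeq2, no filter, the replicate block (3.36, adjusted *p* = 0.0223) or without sg5 replicate 1. With the block, *Fjx1*, *Crygs*, *Popdc3* and *Cebpa*, 4 of the 21 neighbours, were up in both clones in the rRNA-depleted libraries, and *3300005D01Rik* was down in both. *Ago1*, 20.8 kb from *Ago4* and of the same family, did not rise. Adjusted values here come from the edgeR quasi-likelihood test, apart from those of fits with DESeq2, which come from its own test.

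Within 1 Mb of the 11 genes, 8 of 166 genes tested in polyA (4.82%) rose in both clones and 6 (3.61%) fell, where 2.18% and 5.48% of all genes did. In the rRNA-depleted libraries 5 of 139 (3.6%) rose and 2 (1.44%) fell, where 1.35% and 2.62% of all genes did. The largest of these changes was that of *Trim44*, 149 kb from *Pamr1*, which encodes a tripartite motif family protein. Its polyA level was 0.109, 0.272 and 0.216 CPM in WT, 62.5, 64.6 and 63.6 in sg5, and 58.3, 61.4 and 61.0 in sg6, so it missed the set by its WT level. Its log2 fold change was 8.28 ± 0.16 in sg5 and 8.24 ± 0.16 in sg6 in polyA, and 8.59 ± 0.44 and 8.39 ± 0.44 in the rRNA-depleted libraries (SE), with an edgeR quasi-likelihood adjusted *p* of at most 2.67e-07. Of 53 TRIM genes tested in polyA it alone rose in both clones, and 3 fell. Of 38 tested in the rRNA-depleted libraries, 2 rose in both clones (*Trim13* and *Trim44*) and 2 fell. *Col8a2*, 175 kb from *Ago4*, and *Acta2*, 218 kb from *Ch25h*, also rose in both clones in both kinds of RNA, except in sg6 without WT replicate 3 (adjusted *p* = 0.0677 and 0.0615). *Qrfpr*, *Pde10a*, *Cys1* and *Ptchd4* had no gene up in both clones within this distance in either kind of library.

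**Figure D5:**
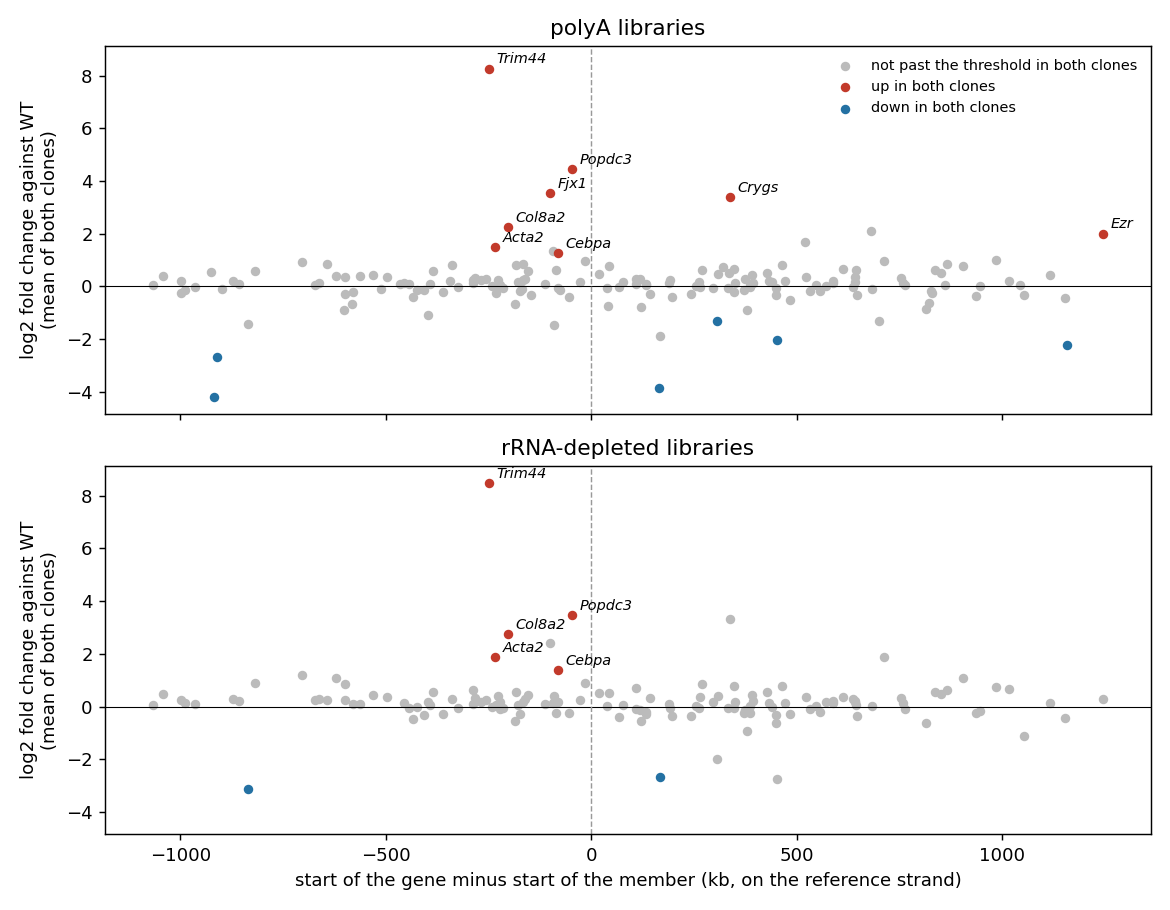
Log2 fold change against WT (y axis, mean of the sg5 and sg6 values) of genes with a gap of up to 1 Mb to any of the 11, by the distance between their start and that of the gene they lie beside (x axis, kb); polyA above, rRNA-depleted below. Red and blue points passed the threshold upward or downward in both clones, and most points (grey) stay near 0, with *Trim44* at the top in both panels and *Popdc3* next to the dashed line.

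The limits of the rule separated genes that are nearly alike. In WT, the members nearest to the limit of 0.2 CPM, by their highest WT library, were *Ptchd4* (0.198), *Zdhhc14* (0.145) and *Cys1* (0.145), and the genes just outside were *Fam189a2* (0.218), *Cd24a* (0.223) and *Hey2* (0.240). In the knockouts, the members nearest to 0.5 CPM, by their lowest library, were *Ch25h* (0.503), *Ptchd4* (0.543) and *Dgkg* (0.652), and those just outside were *Gdf15* (0.484), *Larp6* (0.446) and *Btn1a1* (0.433). With a WT limit of 0.4 CPM the set grew to 28 genes, among them *Popdc3*, *Fjx1* and *Trim44* and the Notch target genes *Hey1* and *Hey2*. With a KO limit of 1 CPM, 6 genes were left (*Pamr1*, *Qrfpr*, *Ago4*, *Lrp3*, *Bves* and *Cys1*).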

How the data were processed

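Members and gene lists were chosen with earlier results of these data known. Per the labels, RNA was taken from C3H/10T1/2 cells, and libraries were made with NEBNext Ultra II kits. For polyA libraries, the authors used Rfastp, Salmon (version 0.8.2 in the submitters' processing notes), mm10 known genes and tximport, and deposited expected counts per gene, unnormalised and already in whole numbers. For rRNA-depleted libraries, the authors used STAR 2.27.10a and TElocal and deposited the read count per gene and transposable element locus, unnormalised. The strand setting is not given in the sources used here.

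CPM was the count over the library total. edgeR 4.0.16 in R 4.3.3 was run on all 9 libraries of a kind in 1 fit with 3 groups (filterByExpr with a minimum count of 10 and total of 15, TMM, quasi-likelihood test), with rRNA-depleted genes and transposable element loci together. This left 15480 polyA genes, and 13303 genes and 42783 loci. A call needed a Benjamini-Hochberg adjusted p below 0.05 and a log2 fold change beyond 1. Adjusted p-values of genes named come from this fit unless an alternative is named beside them. The SE was the log2 fold change over the square root of its F statistic. Ratios of pooled CPM have exact 95% binomial counting intervals, and against 0 WT counts a bound was computed from 3 counts per WT library. Named were all 11 members, their nearest tested neighbours that passed, genes next to the limits of the rule and listed family or marker genes. Families beyond the Popeye, diacylglycerol kinase, LDL receptor and TRIM lists were added after the members were known, and of genes within 1 Mb those named were chosen after their values were seen.

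Positions come from GENCODE vM21 on GRCm38 (mm10), and neighbours, promoters and 24045 of 24100 gene names from RefSeq GRCm38.p6. The alternatives were DESeq2 1.42.0, median-of-ratios size factors, other filters, an adjusted p alone, genes alone, a replicate block, other limits of the rule, and leaving out each library. The fits were tested on simulated data. The labels number the replicates alike without saying what a number marks. Across genes, same-numbered libraries deviated together from their group means in sg6 and WT (correlations of 0.21 to 0.705 in polyA and 0.201 to 0.65 in rRNA-depleted libraries) and in sg5 and sg6 (0.408 to 0.578 and 0.163 to 0.733), so the numbers were taken to pair these groups. Between WT and sg5 they ran from 0.048 to 0.464 and from -0.319 to 0.537, so these groups share only a number. Different numbers averaged -0.215 and -0.17, and reached 0.379 in polyA and 0.677 in rRNA-depleted libraries. The latter was sg5 replicate 3 with sg6 replicate 2, above the 0.163 of sg5 replicate 3 with sg6 replicate 3. The pairing is therefore uncertain in the rRNA-depleted libraries. The main fit did not use it, and the replicate block was an alternative. Figures used matplotlib 3.10.9 in Python 3.11.15.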

Additional observations from a re-analysis of the deposited data

Results flagged for a closer look

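The level of 5 of the 11 genes differed between the clones, tested directly as sg5 against sg6. In polyA, the log2 difference was 1.66 for *Bves*, which was higher in sg5, and -2.65 for *Zdhhc14*, -2.42 for *Dgkg*, -2.09 for *Pde10a* and -1.52 for *Ago4*, which were higher in sg6. In the rRNA-depleted libraries, it was 1.95 for *Bves*, -3.17 for *Dgkg* and -4.42 for *Pde10a*. All had a Benjamini-Hochberg adjusted p below 0.05 in edgeR's quasi-likelihood test. Their sg5 and sg6 libraries did not overlap, as in 26.6% of all genes tested in polyA. That share was not computed for the rRNA-depleted libraries. There, the calls of *Bves* and *Dgkg* were lost with genes fitted alone and without some single libraries, as was the polyA call of *Dgkg* without some single libraries. With 1 clone per guide, clone and guide cannot be told apart. Groups of 3 libraries were not tested for outlying libraries.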

How the results depend on the processing

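The set of 11 depended on its limits: it held 7 genes with a WT limit of 0.1 CPM, 28 with 0.4, 30 with a KO limit of 0.25 CPM and 6 with a limit of 1. TMM or DESeq2 library sizes kept the same 11 genes, and leaving out single libraries gave 11 to 15. The counts of members up in the rRNA-depleted libraries stayed within 1.5 times under DESeq2, other size factors, both other filters, an adjusted p alone, genes alone and the replicate block, and ran from 5 to 8 in sg5 and from 5 to 8 in both clones when single libraries were left out. In the comparison of sg5 with sg6 in the rRNA-depleted libraries, fitting genes alone left 0 higher and 1 lower, and leaving out single libraries gave 0 to 1 higher and 1 to 3 lower; the cause was not tested. Neighbours up in both clones numbered 4 with DESeq2, 4 with no filter, 4 with an adjusted p alone and 4 with the replicate block, and 1 to 3 without single libraries; neighbours down in both numbered 1 with the replicate block and 0 to 1 without single libraries. The sign of small, uncalled values turned: the polyA difference of sg5 against sg6 was 0.008 for *Qrfpr* with the replicate block (-0.384 to 0.347 without single libraries), and for *Lrp3* 0.002 with DESeq2, 0.002 with median-of-ratios size factors and 0.008 with no filter (-0.179 to 0.124 without single libraries). That of *Cys1* in the rRNA-depleted libraries ran from -0.348 to 0.213 without single libraries, and *Pde10a* in sg5 against WT from -0.991 to 0.775.

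With the replicate block, 8 members were up in sg5 and 11 in sg6 in the rRNA-depleted libraries, and beside *Pamr1* in sg6 the block changed the call of no member. An adjusted p alone called 1631 genes up and 1501 down in both clones in polyA (337 and 849 with the fold limit) and 327 higher and 414 lower in sg5 than sg6 (211 and 193), and 307 up in both in rRNA-depleted libraries (180). There, no filter called 276 up in both, without WT replicate 3 it was 100, and genes higher in sg5 than sg6 (74) numbered 126 with DESeq2, 195 with no filter and 136 with the replicate block. Counts of single reads limit the WT levels, so differences under about 3 counts per library were not detectable.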
